A study of Oryctolagus cuniculus with 35 samples.

Results

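The genes described here are the translation initiation and elongation factors and the aminoacyl-tRNA synthetases of rabbit lung. They were taken by symbol: names that begin with EIF or EEF and a digit, synthetase names of 1 or 2 letters followed by ARS with or without a final 1 or 2, and FARSA, FARSB and EPRS. The deposited tables held 78 such genes, 15 of them were listed at 0 in all 35 libraries, and the remaining 63 are the members, out of 13452 genes with a read in at least 1 library. Each of the 63 had reads in all 35 libraries and passed the filter on low values in every comparison. Listed at 0 were CARS, EEF1AKMT3, EIF2AK1, EIF2B1, EIF3B, EIF3I, EIF3L, EIF4E1B, EIF4E2, EIF4EBP1, EIF4H, FARS2, MARS, WARS and YARS, and EEF2 was not analysed here. Several of these serve every cell, so a listed 0 may be a matter of annotation or counting and is not read as absence of the RNA. A member of the synthetases, MARS2, carried a date in place of its symbol in 3 of the 4 tables and was found there by its identifier. EIF4A1 and EEF1A1, which stand for the group, were read in every library, EIF4A1 at 124 to 1021 and EEF1A1 at 3384 to 5595 counts per 1000000 reads (CPM).

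Lung RNA of New Zealand rabbits was sequenced in 35 libraries, 7 in each of 5 groups, and the labels do not say outright that each library is a separate rabbit. The control libraries are labelled healthy, with NaCl as their treatment. The rabbits of the other 4 groups were inoculated with pneumococci, which gave pneumonia, were ventilated mechanically in an adverse setting, and were allocated at random to NaCl (the NaCl group below), human umbilical cord-derived mesenchymal stem cells given intravenously at 3000000 cells per kg (MSC), the cephalosporin antibiotic ceftaroline-fosamil (ceftaroline below) given intramuscularly at 20 mg/kg, or ceftaroline plus MSC. Treatment was given 4 h after inoculation of the bacteria, and lung pieces were taken at autopsy at 24 h or at an earlier death. Pneumonia and ventilation came together in these rabbits, so their parts cannot be told apart.

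Translation of an mRNA begins when eIF2 brings the initiator tRNA to the small ribosomal subunit, where eIF3 serves as a scaffold. The eIF4 factors bind the cap of the mRNA and unwind its leader. eIF2B reloads eIF2 with GTP, and kinases that phosphorylate eIF2 block this step and lower initiation across the cell during viral infection, amino acid shortage or protein folding stress. Elongation factors then carry the charged tRNAs to the ribosome, and the synthetases charge each tRNA with its amino acid, by separate sets of enzymes in the cytosol and in the mitochondria.

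Reads per library numbered 7567008 to 33209729, with a median of 11137017. Depth differed between groups, with medians of 9731971 in healthy, 9527492 in NaCl and 10577412 in MSC libraries. The medians were 15675806 with ceftaroline and 12927861 with ceftaroline plus MSC. Levels are given as CPM, computed from whole reads recovered from the deposited values. Differences are on the log2 scale, with their standard error (SE), and a member is called where limma's adjusted p over all genes tested was under 0.05. The p-values measure the spread between libraries. Titles of 5 healthy, 3 NaCl and 2 MSC libraries end in PD or PG, and the labels do not say what this means. PD is found only in healthy libraries, and the NaCl and MSC endings are all PG. Titles mostly start with a letter for the group, but healthy replicates 6 and 7 have the letter and numbers of ceftaroline replicates 5 and 7 before the ending, and the 3 NaCl and 2 MSC libraries with an ending start with other letters. All are placed here by their labelled group and condition. The mark S00 in the sample names covers all healthy libraries and 1 NaCl library, so it cannot be told apart from the group. The epithelial marker SFTPB was read in the lungs, while SFTPC, SFTPD and ABCA3 of the same list were listed at 0. In bulk tissue, fewer cells of a type and less RNA per cell cannot be told apart.

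In the NaCl group, 37 of the 63 members were higher than in healthy lung and 5 were lower by limma, and 21 did not pass the test. Of all 9545 genes tested, 29.7% were called higher and 30.9% lower. The members' median log2 difference was 0.58, and that of all genes tested was 0.00. On the deposited normalised reads, in 27 members every NaCl library was above every healthy library and in 1 every NaCl library was below, where the same held for 14.7% and 15.2% of all genes tested. By role, the members called higher were 3 of 4 in start codon recognition and eIF2, and 3 of 4 in eIF2B. In eIF3 they were 3 of 8, in the eIF4 group 5 of 8, and among inhibitors and kinases 2 of 6. EIF6, 12 of 15 cytosolic synthetases and 5 of 13 mitochondrial synthetases were called higher too. Of the 4 members grouped under elongation 3 were called higher: EEF1B2, the methyltransferase EEF1AKNMT, and EEF1E1 of the multi-synthetase complex. EEF1A1 was not called. The 5 called lower were EIF2D, EIF3E, EIF3F, RARS2 and VARS2, of which all but RARS2 fall outside the naming rule and are described because they were seen to fall. The authors' deposited table called 37 members higher and 5 lower at the same threshold, beside 6570 of its 23669 genes in either direction. Of the 23669 genes, 10217 had no read in any library, so that base is unlike that of the members. DESeq2 run here on the 9545 genes tested called 32.2% higher and 30.8% lower.

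Libraries with and without a title ending are found in both groups, but the kind of ending is not balanced. All 3 NaCl endings are PG, and among the healthy endings only that of replicate 6 is PG, the others being PD. PD and PG were pooled below, so the fits by ending do not adjust for PD against PG. Among the libraries without an ending (4 NaCl and 2 healthy), limma called 28 members higher and 2 lower (RARS2 and EIF4EBP2), and among those with one (3 NaCl and 5 healthy) it called 35 higher and 5 lower. All genes tested moved with these counts: 20.2% were called higher and 18.1% lower without an ending, and 27.6% and 28.6% with one. With the ending as a covariate the members' counts were 38 and 5, beside 29.5% and 29.9% of all genes. Without healthy replicates 6 and 7, whose titles do not match their group, 36 members were higher and 4 lower, beside 27.5% and 28.5% of all genes, and EIF2D and EIF4ENIF1 lost their calls. The members called over all 14 libraries that lost the call among those without an ending were EIF2D, EIF3A, EIF3E, EIF3F, EIF4B, EIF4ENIF1, EIF4G3, LARS, MARS2, NARS2, SARS, VARS2, WARS2 and YARS2. EIF1AD, EIF2B4, EIF4G3 and WARS2 lost it among those with one.

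**Figure D1:**
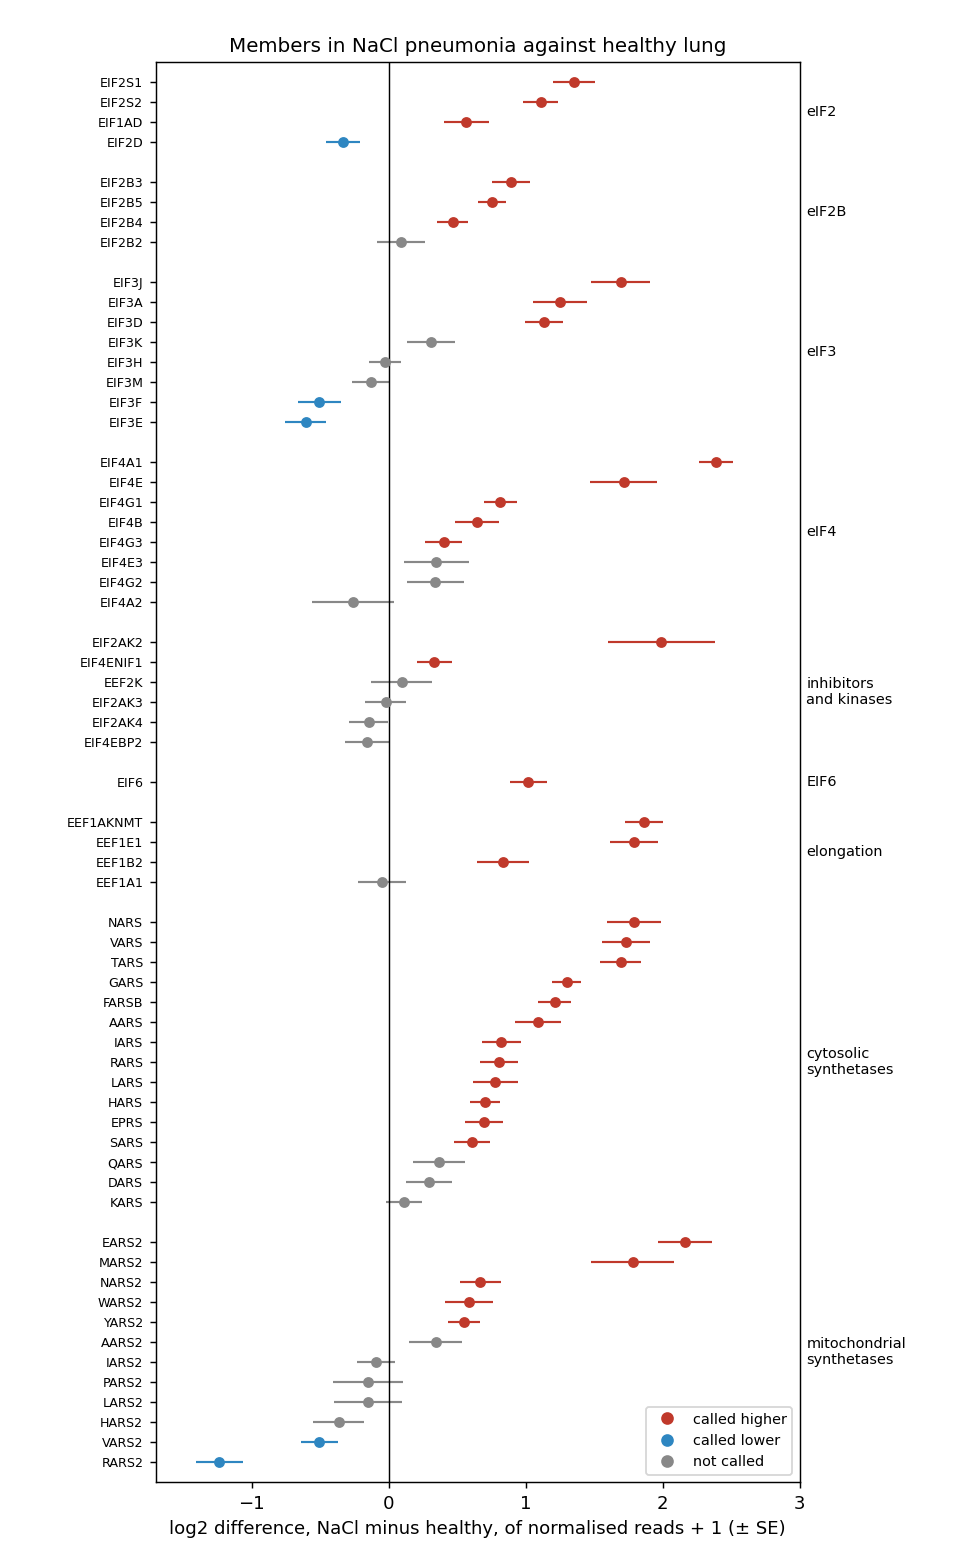
The log2 difference (NaCl minus healthy, normalised reads + 1) of 62 of the 63 members with its SE, grouped by role and coloured by limma's call. The cytosolic synthetases all lie to the right of 0, from 0.11 to 1.79, and the mitochondrial ones spread from -1.24 to 2.17.

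Cell type markers moved in the same comparison. Of the neutrophil list, 8 of 10 genes were in the tables, CSF3R and MMP9 among these were listed at 0, and all 5 tested were higher by limma, with a summed level of 1294 to 9922 CPM in healthy and 14905 to 139927 CPM in NaCl libraries. Of the macrophage and monocyte list, 5 of 6 tested were higher, and the sum went from 320.3 to 578 CPM to 918 to 5450.3 CPM. Both tested type II epithelial genes, all 5 type I genes and 3 of 4 ciliated cell genes were lower. Of the endothelial genes 1 of 5 was higher and 3 lower, and of the smooth muscle and fibroblast genes 2 of 6 were lower. The T and NK, B and plasma, red cell and dividing cell lists had no called gene among 2, 5, 1 and 4 tested. The part of these cell types in the members' levels was not tested. NaCl replicate 5 had the lowest neutrophil sum of its group, 14905 CPM, which was still above every healthy library. There 35 of the 37 risen members lay above the highest healthy library. These members were chosen on libraries that include this one, so the count is only a description.

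The subunits of eIF2 itself rose. EIF2S1, the alpha subunit that the eIF2 kinases phosphorylate, ranged from 44.5 to 73.5 CPM (median 52.5) in the healthy libraries and from 104 to 164 CPM (median 150.1) in the NaCl libraries, a log2 difference of 1.35 ± 0.15 (limma adjusted p = 2.2e-06). EIF2S2, the beta subunit, ranged from 193 to 337 CPM (median 227) in the healthy libraries and from 466 to 522 CPM (median 500.5) in the NaCl libraries, a difference of 1.11 ± 0.13 (limma adjusted p = 2.6e-06). The groups did not overlap for either subunit, and healthy replicate 6 was the highest healthy library for both. EIF1AD, named for its domain shared with eIF1A, differed by 0.57 ± 0.16 with overlapping groups (limma adjusted p = 0.00724); within the libraries with a title ending the difference was 0.16 and not called, and within the others 0.96. EIF2D, which can deliver tRNA to the ribosome without eIF2, fell by 0.33 ± 0.13 on the log2 scale, from a median of 97.2 to 74.2 CPM (limma adjusted p = 0.0312). The groups overlapped for EIF2D, and its call was lost when healthy replicate 1, 2, 3 or 7 or NaCl replicate 3, 5 or 6 was left out (-0.33 to -0.27) and among the libraries without a title ending (-0.15).

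The exchange factor eIF2B, which reloads eIF2, was represented by 4 members, with EIF2B1 listed at 0. EIF2B5, the catalytic subunit, ranged from 52.9 to 71.0 CPM (median 58.9) in the healthy libraries and from 87.4 to 108 CPM (median 99.5) in the NaCl libraries, with a log2 difference of 0.75 ± 0.10 (limma adjusted p = 1.2e-05). EIF2B3, the gamma subunit, had 21.4 to 41.1 CPM in healthy and 46.2 to 58.1 CPM in NaCl lungs and differed by 0.89 ± 0.14 (limma adjusted p = 6.4e-05). EIF2B4, the delta subunit, went from a median of 81.8 to 113 CPM, a difference of 0.47 ± 0.11 (limma adjusted p = 0.00235). In these 3 subunits the groups did not overlap. The EIF2B4 difference was 0.75 in libraries without a title ending and 0.32, not called, in those with one. EIF2B2, the beta subunit, overlapped between the groups, at 96.2 to 152 CPM against 84.2 to 179 CPM, with a difference of 0.09 ± 0.17 (limma adjusted p = 0.684).

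The 8 measured subunits of eIF3, the scaffold of the initiation complex, moved in both directions. EIF3J, a loosely bound subunit, ranged from 17.1 to 29.8 CPM (median 25.5) in the healthy libraries and from 44.3 to 119 CPM (median 74.3) in the NaCl libraries, a log2 difference of 1.69 ± 0.22 (limma adjusted p = 7.8e-06). EIF3D, which can bind the cap of some mRNAs, ranged from 184 to 345 CPM (median 306) in the healthy libraries and from 548 to 664 CPM (median 603) in the NaCl libraries, a difference of 1.13 ± 0.14 (limma adjusted p = 4.5e-06). Every NaCl library was above every healthy library for both genes. EIF3A, the largest core subunit, overlapped slightly, at 88.5 to 161 CPM against 145 to 365 CPM, and differed by 1.25 ± 0.20 (limma adjusted p = 6.0e-05). The 3 NaCl libraries with a title ending were the highest for EIF3A: the difference was 1.74 among libraries with an ending and 0.73, not called, among those without.

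Against these, EIF3E and EIF3F fell. EIF3E, a subunit outside the core that budding yeast lacks, ranged from 726 to 1202 CPM (median 873) in the healthy libraries and from 491 to 763 CPM (median 514) in the NaCl libraries, a log2 difference of -0.61 ± 0.15 (limma adjusted p = 0.00269). EIF3F, an MPN-domain subunit, ranged from 529 to 718 CPM (median 609) in the healthy libraries and from 311 to 581 CPM (median 444) in the NaCl libraries, a difference of -0.51 ± 0.16 (limma adjusted p = 0.0114). The highest NaCl library reached into the healthy range for EIF3E, and the highest 2 did for EIF3F. Among libraries without a title ending the differences were -0.32 and -0.25, neither called, and among those with one -0.85 and -0.85. EIF3H, EIF3K and EIF3M did not pass the test, with differences of -0.03, 0.31 and -0.13.

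EIF4A1, the RNA helicase that unwinds mRNA leaders, had the largest difference of the 63 members. Its level ranged from 124 to 176 CPM (median 166) in the healthy libraries and from 638 to 1021 CPM (median 804) in the NaCl libraries, so the lowest NaCl library lay far above the highest healthy one. The log2 difference was 2.39 ± 0.13 (limma adjusted p = 4.5e-09), with 2.30 in libraries without a title ending and 2.44 in those with one. Its close paralog EIF4A2 ranged from 74.9 to 199 CPM (median 133) in the healthy libraries and from 39.6 to 168 CPM (median 115) in the NaCl libraries. These ranges overlapped. The EIF4A2 difference was -0.26 ± 0.30 (limma adjusted p = 0.467), and it took the other sign, 0.09, in libraries with a title ending. How reads shared by these similar sequences were counted is not given in the sources used here.

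EIF4E, the cap-binding protein, ranged from 47.9 to 121 CPM (median 74.3) in the healthy libraries and from 155 to 369 CPM (median 276) in the NaCl libraries, a log2 difference of 1.72 ± 0.24 (limma adjusted p = 2.1e-05). EIF4G1, the scaffold that joins EIF4E to EIF4A, ranged from 504 to 641 CPM (median 538) in the healthy libraries and from 765 to 1060.5 CPM (median 940.0) in the NaCl libraries, a difference of 0.82 ± 0.12 (limma adjusted p = 2.9e-05). The groups did not overlap for EIF4E or EIF4G1. On the deposited normalised reads the same held for EIF4B, a partner of the helicase, which differed by 0.65 ± 0.16 (limma adjusted p = 0.00266). EIF4G3, another form of the scaffold, differed by 0.40 ± 0.13 with overlapping groups (limma adjusted p = 0.0161). EIF4E3 and EIF4G2 did not pass the test, at 0.35 and 0.34. EIF4G2 lacks the EIF4E-binding site of the other scaffolds.

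Among the 6 inhibitors and kinases, EIF2AK2 had the largest rise. EIF2AK2 (PKR) phosphorylates eIF2 when it binds double-stranded RNA and is known as an interferon-induced gene. It ranged from 1.66 to 2.92 CPM (median 2.24) in the healthy libraries and from 3.77 to 24.9 CPM (median 7.82) in the NaCl libraries, a log2 difference of 1.99 ± 0.39 (limma adjusted p = 4.1e-04). The groups did not overlap, but the NaCl libraries spread widely: the 3 with a title ending were the lowest 3, and the difference was 1.05 among libraries with an ending against 2.56 among those without. The other eIF2 kinases with reads did not pass the test. EIF2AK3 (PERK), the kinase of protein folding stress, ranged from 36.4 to 51.5 CPM (median 47.3) in the healthy libraries and from 29.1 to 57.9 CPM (median 44.9) in the NaCl libraries, with a difference of -0.02 ± 0.15 (limma adjusted p = 0.909). EIF2AK4 (GCN2), the kinase of amino acid shortage, ranged from 23.2 to 35.2 CPM (median 28.0) in the healthy libraries and from 19.4 to 30.1 CPM (median 24.1) in the NaCl libraries, with a difference of -0.15 ± 0.14 (limma adjusted p = 0.392).

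EIF4ENIF1 (4E-T), which binds EIF4E and represses its mRNAs, had 18.7 to 28.9 CPM in healthy and 25.1 to 33.5 CPM in NaCl lungs, a log2 difference of 0.33 ± 0.13 (limma adjusted p = 0.0342). The groups overlapped, the difference was 0.00 among libraries without a title ending, and edgeR did not call it. The call was also lost when healthy replicate 2, 4 or 6 or NaCl replicate 4, 5, 6 or 7 was left out (0.28 to 0.33). EIF4EBP2, which blocks EIF4E until mTOR phosphorylates it, differed by -0.16 ± 0.16 (limma adjusted p = 0.409), and its relative EIF4EBP1 was listed at 0. EEF2K, the kinase that slows elongation, differed by 0.09 ± 0.22 (limma adjusted p = 0.731).

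EIF6, which keeps the large ribosomal subunit from joining too early and serves in its maturation, ranged from 113 to 209 CPM (median 163) in the healthy libraries and from 272 to 333 CPM (median 298) in the NaCl libraries, with no overlap and a log2 difference of 1.02 ± 0.14 (limma adjusted p = 1.2e-05). The elongation genes split. EEF1A1, the abundant factor that delivers charged tRNAs to the ribosome, ranged from 3507 to 5595 CPM (median 4914) in the healthy libraries and from 3643 to 5321 CPM (median 4435) in the NaCl libraries, with a difference of -0.05 ± 0.17 (limma adjusted p = 0.812). Reads of EEF1A1 can be shared with its processed copies, so its level is uncertain. EEF1AKNMT, the methyltransferase that modifies EEF1A, ranged from 17.0 to 24.9 CPM (median 20.6) in the healthy libraries and from 55.7 to 103 CPM (median 73.6) in the NaCl libraries, a difference of 1.86 ± 0.14 with no overlap (limma adjusted p = 5.6e-08). EEF1E1, known also as a part of the multi-synthetase complex, ranged from 8.21 to 13.1 CPM (median 10.7) in the healthy libraries and from 25.5 to 51.2 CPM (median 33.6) in the NaCl libraries, a difference of 1.79 ± 0.18 with no overlap (limma adjusted p = 6.1e-07). EEF1B2, an exchange factor of EEF1A, went from a median of 528 to 923 CPM with overlapping groups, a difference of 0.83 ± 0.19 (limma adjusted p = 0.00134).

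All 15 cytosolic synthetases had a positive difference and 12 were called higher, with a median log2 difference of 0.80. GARS (glycyl), whose gene also gives the mitochondrial enzyme, ranged from 100.5 to 139 CPM (median 119) in the healthy libraries and from 271 to 323 CPM (median 282) in the NaCl libraries, a difference of 1.30 ± 0.11 (limma adjusted p = 1.1e-07). TARS (threonyl) ranged from 91.2 to 157 CPM (median 114) in the healthy libraries and from 274 to 462 CPM (median 367) in the NaCl libraries, a difference of 1.69 ± 0.15 (limma adjusted p = 2.2e-07). FARSB, the beta subunit of the phenylalanyl enzyme, ranged from 47.7 to 67.2 CPM (median 63.5) in the healthy libraries and from 117 to 158 CPM (median 144) in the NaCl libraries, a difference of 1.21 ± 0.12 (limma adjusted p = 6.8e-07). None of the 3 overlapped between the groups. The largest differences of the set were those of NARS (asparaginyl), 1.79 ± 0.20, and VARS (valyl), 1.73 ± 0.17, also without overlap. HARS (histidyl), AARS (alanyl) and IARS (isoleucyl) did not overlap either, at 0.70, 1.09 and 0.82.

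EPRS, the fused glutamyl and prolyl enzyme of the multi-synthetase complex, ranged from 110.1 to 169 CPM (median 122) in the healthy libraries and from 161 to 247 CPM (median 181) in the NaCl libraries, where healthy replicate 6 reached into the NaCl range. It differed by 0.70 ± 0.14 (limma adjusted p = 5.1e-04). RARS (arginyl), LARS (leucyl) and SARS (seryl) were called higher with overlapping groups, at 0.80, 0.78 and 0.61. The 3 that did not pass the test were QARS (glutaminyl), DARS (aspartyl) and KARS (lysyl, which serves both compartments), at 0.37, 0.29 and 0.11. DARS, KARS and QARS belong to the same complex as EPRS, LARS and RARS, so members of the complex stood on both sides of the threshold. FARSB overlaps the gene SGPP2 in RefSeq's rabbit annotation, and SGPP2 went the other way, at -3.34 on the log2 scale. HARS overlaps HARS2, also a member, which differed by -0.37 and was not called. AARS overlaps ST3GAL2, at -0.03. Of the 62 members found in that annotation, 17 overlap a protein-coding gene.

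The 13 mitochondrial synthetases moved apart from each other: 5 were called higher and 2 lower, with a median log2 difference of -0.09. EARS2 (glutamyl) ranged from 0.858 to 1.34 CPM (median 1.22) in the healthy libraries and from 3.64 to 8.12 CPM (median 5.40) in the NaCl libraries, a difference of 2.17 ± 0.20 with no overlap (limma adjusted p = 3.1e-07). MARS2 (methionyl) ranged from 0.534 to 2.37 CPM (median 1.66) in the healthy libraries and from 3.09 to 8.94 CPM (median 5.04) in the NaCl libraries, a difference of 1.78 ± 0.30 with no overlap (limma adjusted p = 1.1e-04), and of 0.91, not called, in libraries without a title ending. RARS2 (arginyl) was the only member that fell with no overlap: it ranged from 17.4 to 29.8 CPM (median 17.9) in the healthy libraries and from 5.83 to 10.7 CPM (median 8.96) in the NaCl libraries, a difference of -1.24 ± 0.17 (limma adjusted p = 1.8e-05). It was called in the libraries without a title ending (-0.81) and in those with one (-1.60). VARS2 (valyl) fell from a median of 167 to 104 CPM, a difference of -0.51 ± 0.13 (limma adjusted p = 0.00405), while its cytosolic counterpart VARS rose. Without a title ending the VARS2 difference was -0.23 and not called.

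NARS2 (asparaginyl), WARS2 (tryptophanyl) and YARS2 (tyrosyl) were called higher, at 0.67, 0.58 and 0.55. AARS2, HARS2, IARS2, LARS2 and PARS2 did not pass the test, with differences from -0.37 for HARS2 to 0.34 for AARS2. Several of these genes overlap a neighbour in RefSeq's rabbit annotation (assembly mOryCun1.1), whose reads could be confused with theirs. RARS2 overlaps ORC3, which differed by -1.51, and EARS2 overlaps GGA2 and UBFD1, which differed by 0.90 and 0.47. MARS2 overlaps RFTN2, which went the other way, at -3.35.

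**Figure D2:**
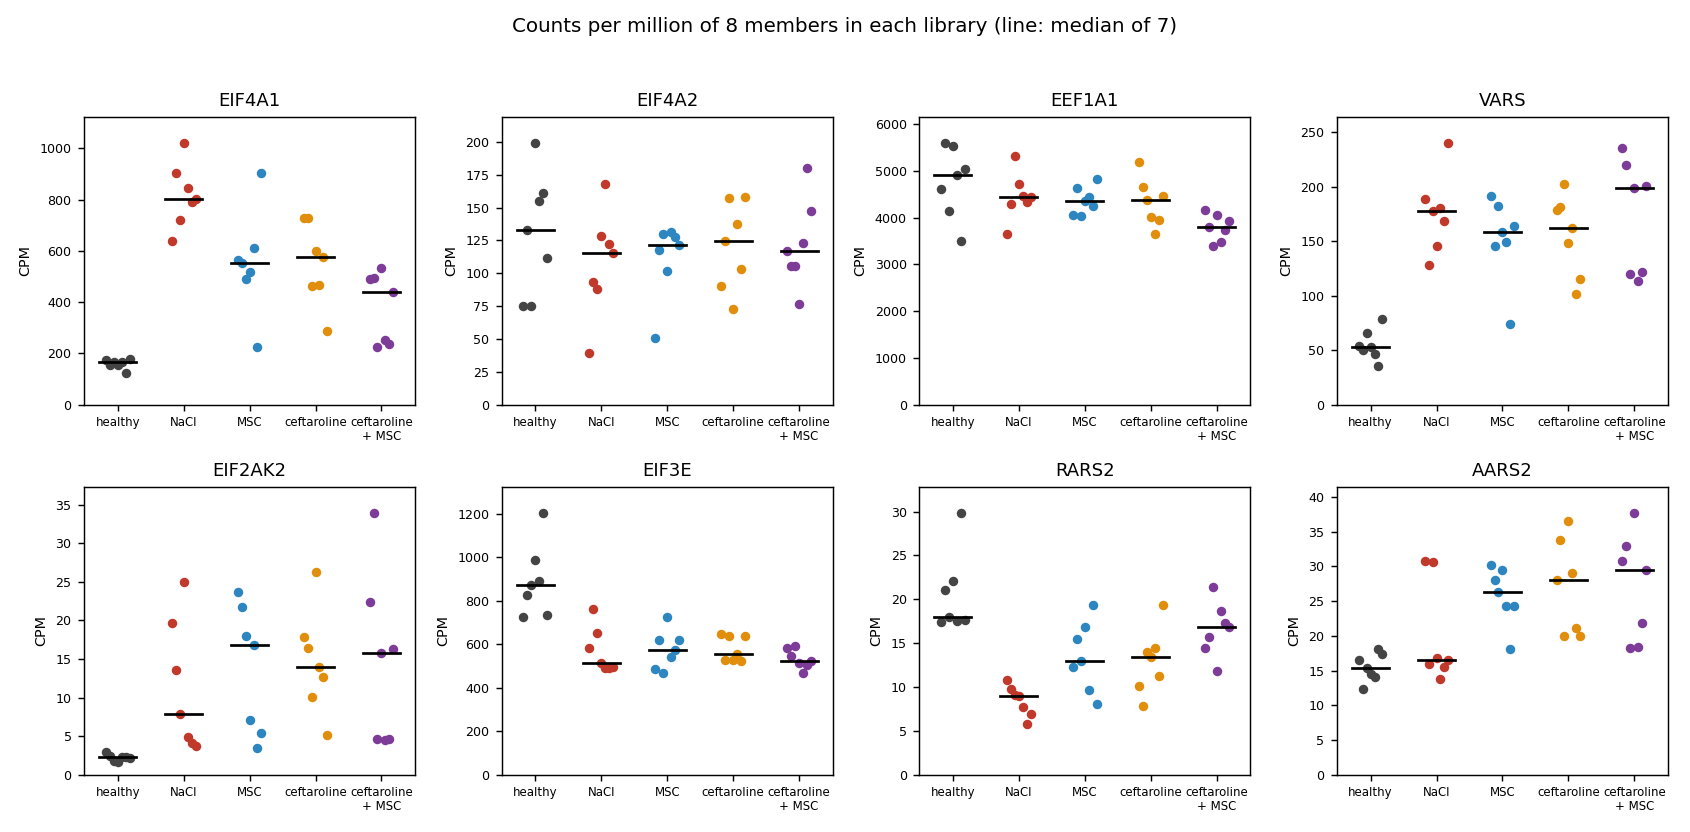
CPM of 8 members in each of the 35 libraries, by group, with the group's median as a line. EIF4A1 lies at 124 to 176 CPM in healthy and 638 to 1021 CPM in NaCl lungs, while EIF4A2 and EEF1A1 overlap between these groups and RARS2 is lower in all NaCl libraries.

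Of 64 other genes of translation and its control that are not members, 43 were in the tables, 9 of these were listed at 0 and 33 were tested in the comparison of NaCl with healthy lung. limma called 19 higher and 5 lower, and their median log2 difference was 0.56. The 6 with the lowest p included ETF1, the factor that recognises stop codons, at 2.05 (limma adjusted p = 1.3e-07), and PAIP2B, an inhibitor of the poly(A)-binding protein, at 2.75 (limma adjusted p = 6.6e-07). DPH3, which serves the diphthamide modification of EEF2, was at 1.89 (limma adjusted p = 7.1e-07). The other 3 were lower: PDCD4, an inhibitor of EIF4A, at -1.75 (limma adjusted p = 3.9e-07), SEPSECS, an enzyme of selenocysteine tRNA, at -1.32 (limma adjusted p = 5.8e-07), and TARSL2, a cytosolic threonyl synthetase, at -2.08 (limma adjusted p = 6.2e-08). TARSL2 thus went down where TARS went up. None of these genes was called in the comparisons between treatments.

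The 3 treated groups were each set against healthy lung in a single limma fit of all 35 libraries on log2(CPM + 1). These comparisons share the healthy libraries. In the MSC group 37 members were called higher and 6 lower, beside 25.7% and 25.4% of 10345 genes tested. In the ceftaroline group 37 were higher and 6 lower, beside 27.8% and 27.5%, and in the ceftaroline plus MSC group 32 were higher and 6 lower, beside 18.6% and 16.3%. The members' median log2 differences were 0.42, 0.46 and 0.38. No ceftaroline library has a title ending, and only 2 healthy ones lack it. With the libraries without an ending alone, the counts were 30 higher and 4 lower for MSC, 31 and 3 for ceftaroline, and 18 and 4 for ceftaroline plus MSC. The shares of all genes called higher and lower there were 14.9% and 14.9%, 15.4% and 14.8%, and 6.03% and 4.69%. Without healthy replicates 6 and 7 the members' counts were 36 and 6, 37 and 6, and 31 and 5, beside 23.0% and 22.8%, 25.0% and 25.0%, and 14.9% and 12.7% of all genes.

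EIF4A1 ranged from 224 to 905 CPM (median 553) in the MSC libraries, from 287 to 729 CPM (median 574) in the ceftaroline libraries and from 223 to 532 CPM (median 438) in the ceftaroline plus MSC libraries. All 21 treated libraries were above the highest healthy library, and the order of the group medians ran from NaCl down to ceftaroline, MSC and ceftaroline plus MSC, with overlapping ranges between these neighbours. Its differences from healthy in the joint fit were 2.35 ± 0.23 for NaCl, 1.70 ± 0.23 for MSC, 1.73 ± 0.23 for ceftaroline and 1.17 ± 0.23 for both treatments. GARS, among the 3 lowest p for MSC and for ceftaroline, differed by 1.01 ± 0.13 and 1.06 ± 0.13 (limma adjusted p = 2.0e-06 and 7.7e-07), and by 0.75 with both treatments.

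VARS and HARS were called higher in each treated group. VARS had 35.4 to 78.3 CPM in healthy lung, 74.0 to 191 CPM with MSC, 102 to 203 CPM with ceftaroline and 113 to 236 CPM with both. Only MSC replicate 6, the lowest of its group, reached into the healthy range. The differences were 1.44 ± 0.20, 1.49 ± 0.20 and 1.62 ± 0.20 (limma adjusted p = 4.4e-06, 2.1e-06 and 2.8e-06), beside 1.68 for NaCl. HARS differed by 0.68 ± 0.09, 0.57 ± 0.09 and 0.70 ± 0.09 (limma adjusted p = 2.8e-06, 1.3e-05 and 4.6e-06). EIF3E, among the 3 lowest p with both treatments, had 467 to 593 CPM there, below every healthy library, and differed by -0.73 ± 0.12 (limma adjusted p = 7.6e-05).

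EIF2AK2 was called higher in all 3 treated groups, at 1.95 ± 0.44, 2.17 ± 0.44 and 1.94 ± 0.44 beside 1.64 ± 0.44 for NaCl on the same scale. Adding 1 to the CPM shrinks the differences of members at a few CPM, and on normalised reads the NaCl value was 1.99. The EIF2AK2 levels spread within groups, at 3.44 to 23.7 CPM with MSC and 4.54 to 33.9 CPM with both treatments. EEF1B2 was not called in any treated group, at 0.36, 0.17 and -0.02, beside 0.80 for NaCl, and its difference from NaCl was -0.44 ± 0.21 for MSC and -0.64 ± 0.20 for ceftaroline (limma adjusted p = 0.282 and 0.15). RARS2 was called lower with MSC (-0.59 ± 0.18) and with ceftaroline (-0.65 ± 0.18), and with both treatments its difference was -0.28 ± 0.18 and not called. VARS2 was likewise called lower with MSC and with ceftaroline, at -0.43 and -0.36, and was at -0.06 with both. Set directly against ceftaroline alone, ceftaroline plus MSC differed by 0.38 ± 0.19 for RARS2 and 0.29 ± 0.14 for VARS2, neither called (limma adjusted p = 0.437 and 0.432).

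Some members outside the naming rule, picked after their values were seen, were called against healthy lung in the treated groups and not with NaCl. AARS2, the mitochondrial alanyl enzyme, had 12.3 to 18.1 CPM in healthy, 13.8 to 30.7 CPM in NaCl, 18.1 to 30.1 CPM in MSC, 20.0 to 36.5 CPM in ceftaroline and 18.2 to 37.7 CPM in ceftaroline plus MSC lungs. Its joint-fit differences were 0.29 for NaCl and 0.70, 0.74 and 0.73 for the treated groups (limma adjusted p = 0.00247, 0.00133 and 0.00348). In the direct comparisons with NaCl, AARS2 differed by 0.42 ± 0.20 for MSC and 0.46 ± 0.22 for ceftaroline, neither called (limma adjusted p = 0.301 and 0.297). EIF4EBP2 was called lower in the treated groups, at -0.53, -0.44 and -0.53, and differed from NaCl by -0.34 ± 0.18 for MSC and -0.26 ± 0.16 for ceftaroline, neither called. With both treatments, EIF3H and EEF1A1 were also called lower than in healthy lung, at -0.26 and -0.32 (limma adjusted p = 0.0278 and 0.049), and without replicate 7 of that group 3 members in place of 6 were called lower, beside 12.9% of all genes.

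**Figure D3:**
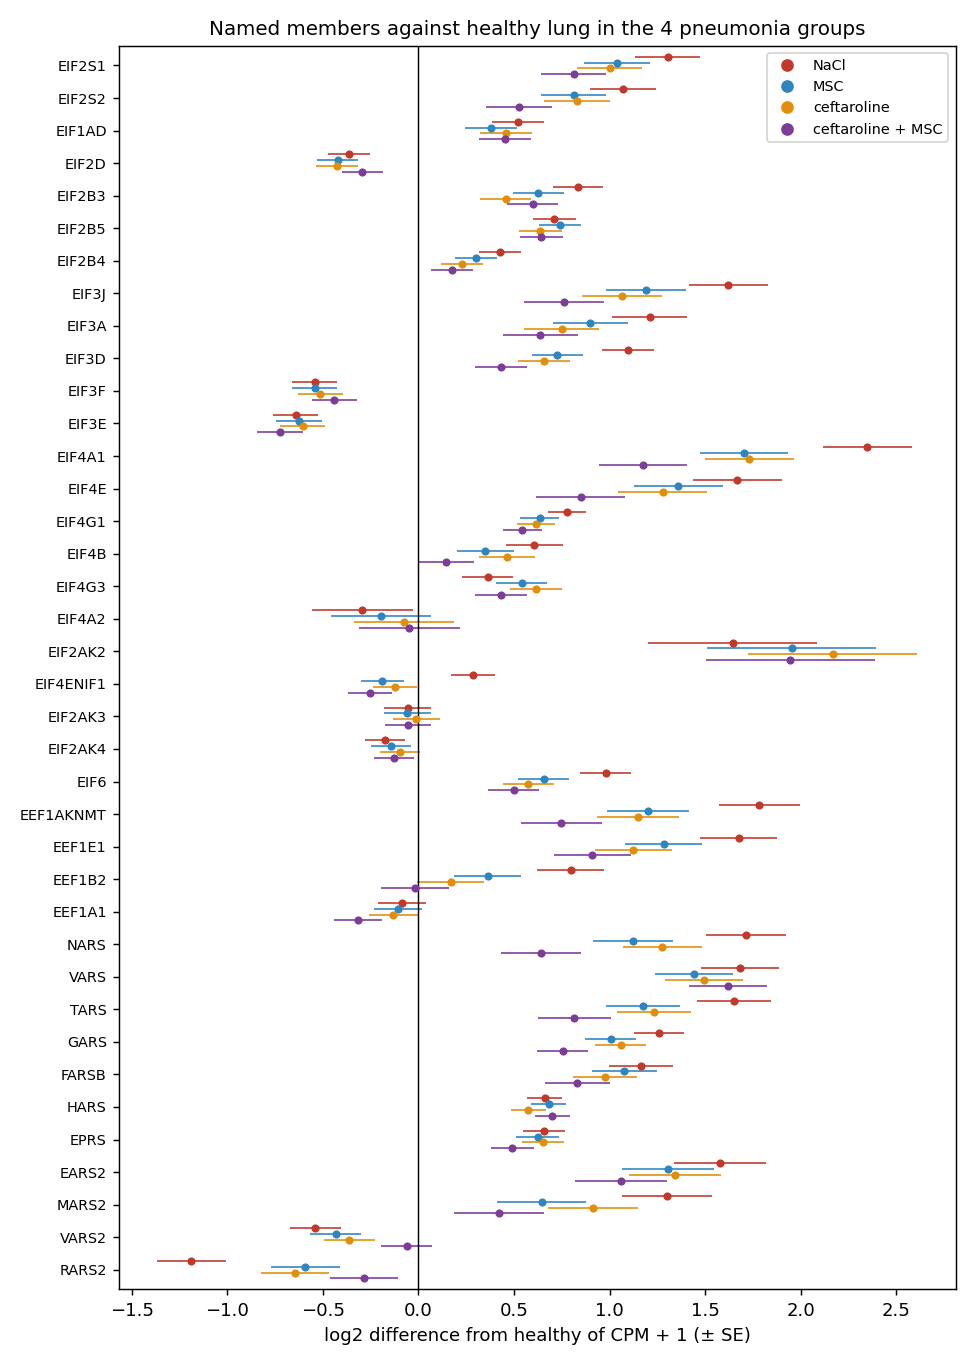
The log2 difference from healthy lung (CPM + 1, ± SE) of the named members in the NaCl, MSC, ceftaroline and ceftaroline plus MSC groups, from 1 fit of 35 libraries. EIF4A1 ran from 2.35 with NaCl to 1.17 with both treatments, and VARS from 1.68 to 1.62.

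The 37 members called higher in NaCl lung were followed library by library, by counting how many lay above the highest healthy library. The set was chosen on the NaCl and healthy libraries, so for these the counts are a description. The treated libraries were set against the highest of the same healthy libraries. No such count was made over all genes called higher, so a shift of all genes in a library cannot be told from one of the members. NaCl libraries held 32 to 35 of the 37. Most treated libraries held a like number, with medians of 33 in each treated group, but the ranges ran down to 16 with MSC, 23 with ceftaroline and 9 with both treatments. The low libraries were MSC replicate 6 with 16, ceftaroline replicate 7 with 23, and ceftaroline plus MSC replicates 3, 5 and 6 with 9, 20 and 22. EIF4A1 was lowest in the same libraries of each group, at 224 CPM, 287 CPM, and 223, 251 and 237 CPM.

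Marker sums differed between the libraries with low counts and the other treated libraries. They did not follow the counts throughout: the highest neutrophil sum of the treated libraries, in ceftaroline replicate 6, went with 30 of the 37 members. Healthy lung had neutrophil sums of 1294 to 9922 CPM. The 5 low libraries had 1434 to 4554 CPM against 9881 to 138915 CPM in the other 16 treated libraries. Their macrophage and monocyte sums were 715 to 1204 CPM against 1223 to 4368 CPM. Their type II epithelial sums (SFTPB and SLC34A2, with SFTPC, SFTPD and ABCA3 listed at 0) were 9548 to 13222 CPM against 508 to 9689 CPM. The part of these cells in the members' levels was not tested, and the libraries were named from the members' values, so no test between them was made.

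**Figure D4:**
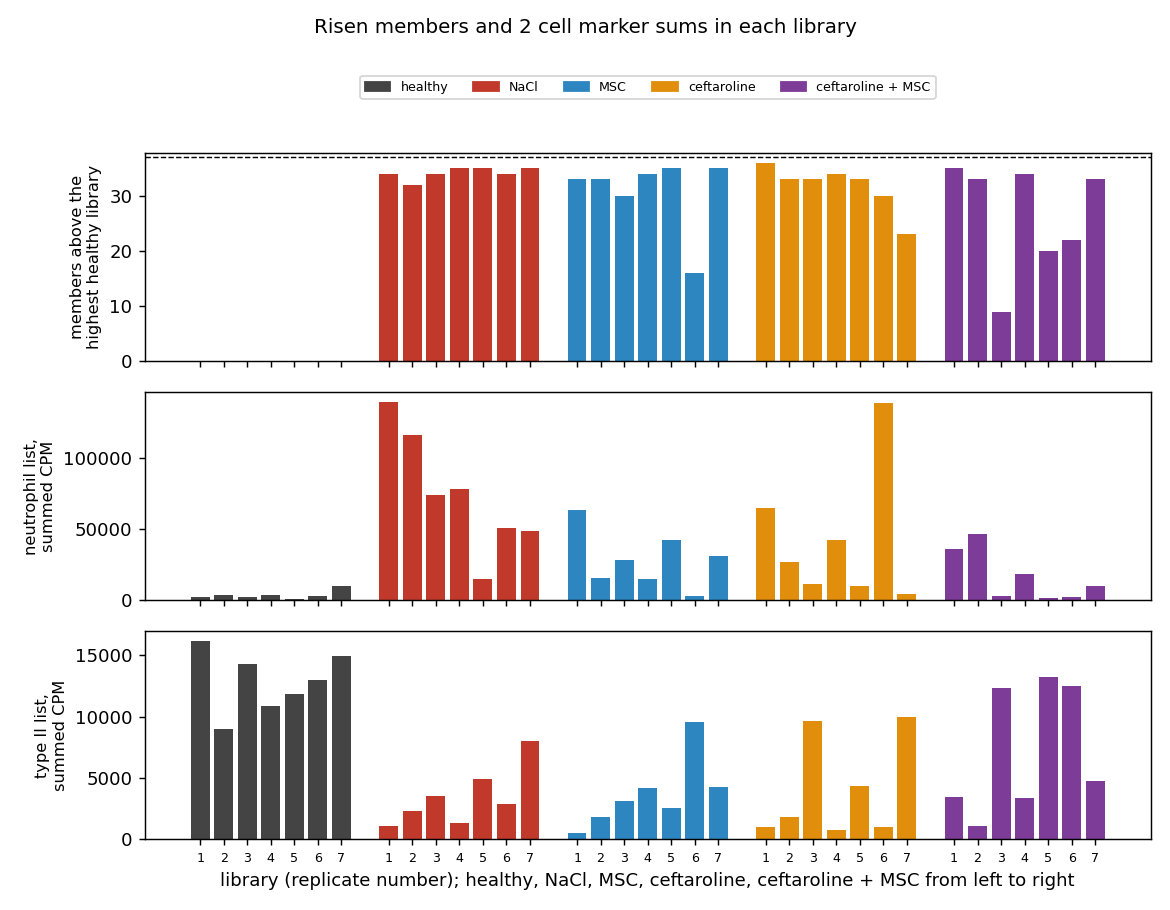
Bars give, for each of the 35 libraries, the number of the 37 risen members above the highest healthy library (dashed line at 37), the summed CPM of the neutrophil list and the summed CPM of the type II list. Ceftaroline plus MSC replicate 3, with 9 members, has a neutrophil sum of 3021 and a type II sum of 12349.8 CPM.

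**Figure D5:**
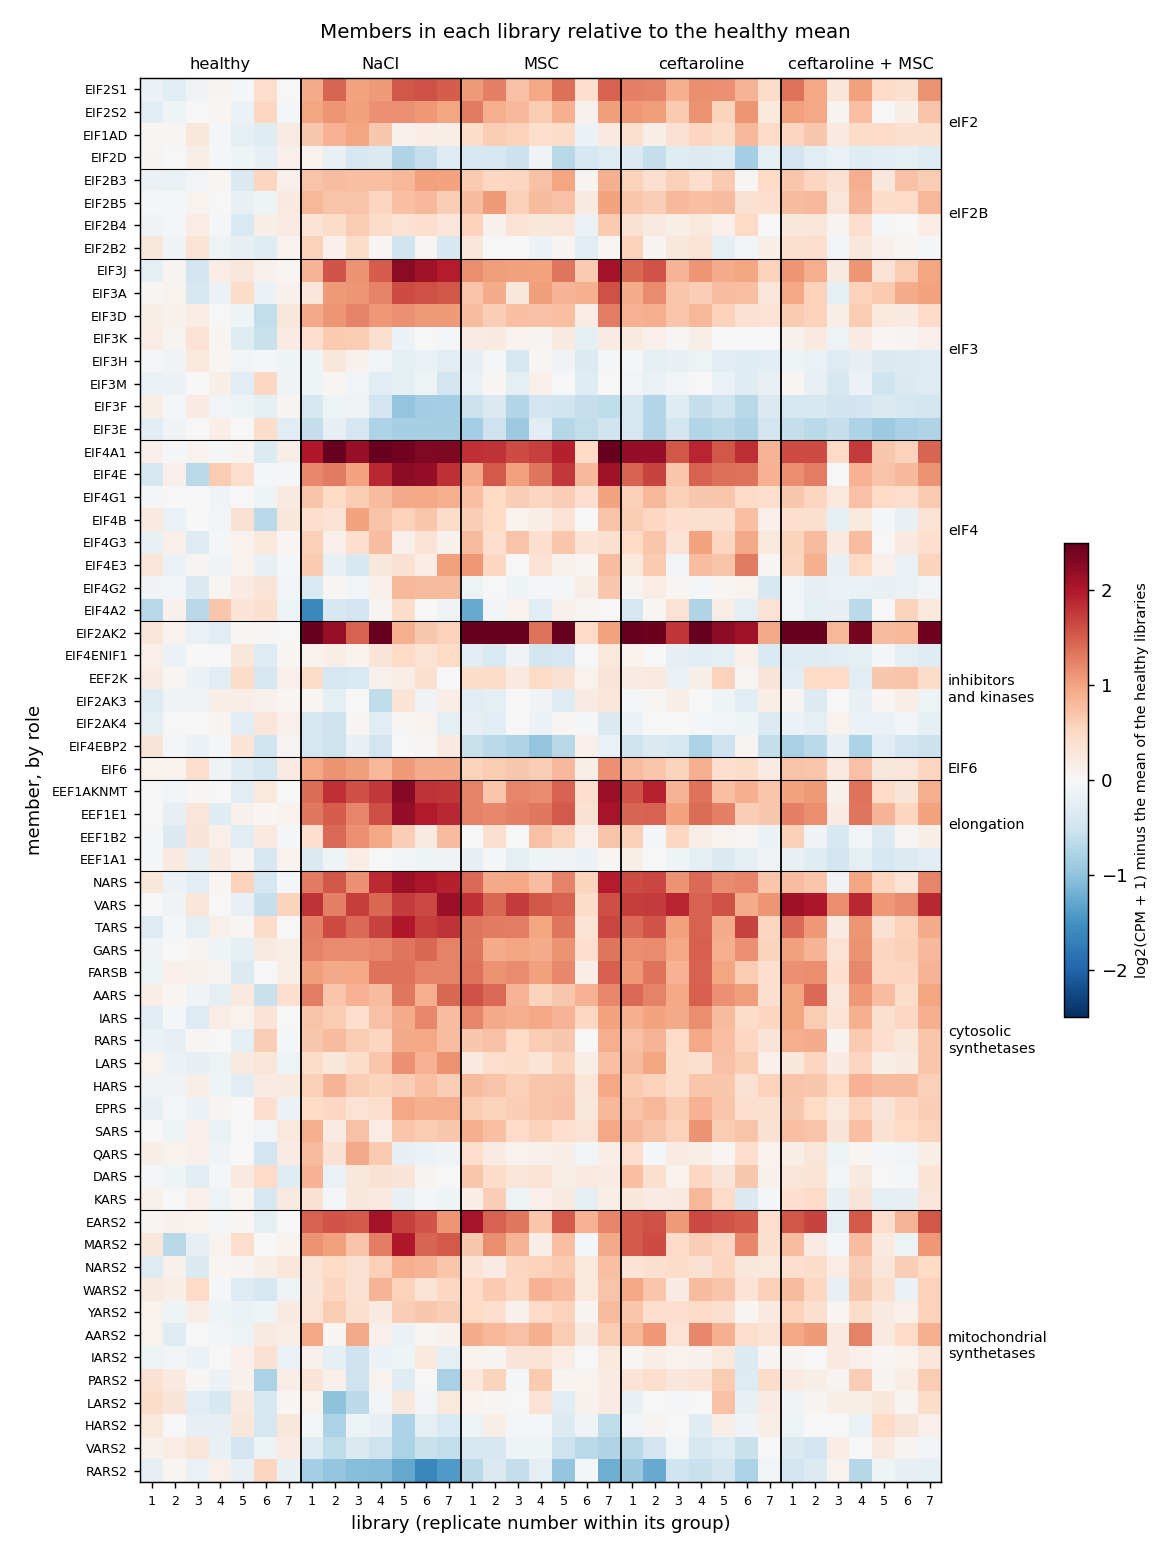
Levels of 62 of the 63 members (rows, by role) in each of the 35 libraries (columns, by group), as log2(CPM + 1) minus the mean of the 7 healthy libraries. Red rows such as EIF4A1 and GARS run through all pneumonia groups and are paler in MSC replicate 6 and ceftaroline plus MSC replicate 3, and the blue rows include EIF3E, EIF3F and RARS2.

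MSC given alone were compared with NaCl among the rabbits with pneumonia. limma called none of the 63 members, and 0.0% of 9446 genes tested in all. At an unadjusted p under 0.05 stood 11 members, 2 higher and 9 lower, beside 17.7% of all genes tested. edgeR called 0 members, with 11 at an unadjusted p under 0.05 (0.0% and 18.3% of all genes). DESeq2 called 1 lower, with 13 at an unadjusted p under 0.05. Of all genes, DESeq2 called 2.02% higher and 1.52% lower, and 21.0% were at an unadjusted p under 0.05. Within the libraries without a title ending 0 were called and 13 were at an unadjusted p under 0.05 (20.3% of all genes), and within those with one (2 MSC and 3 NaCl) 0 were called and 1 was at an unadjusted p under 0.05 (5.13% of all genes). The median log2 difference of the members was -0.09. The neutrophil sums were 2783 to 63989 CPM with MSC and 14905 to 139927 CPM with NaCl. All 5 tested neutrophil genes were lower with MSC, with a median of -1.60, and 4 of them were at an unadjusted p under 0.05 in limma. Their part in the members' levels was not tested.

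The 3 members with the lowest p for MSC were EIF4ENIF1, RARS2 and MARS2. EIF4ENIF1 ranged from 25.1 to 33.5 CPM (median 29.5) in the NaCl libraries and from 17.0 to 28.6 CPM (median 19.5) in the MSC libraries, a log2 difference of -0.50 ± 0.14 (limma adjusted p = 0.159). DESeq2 called it, and the authors' deposited table gave -0.49 with an adjusted p of 0.0363. RARS2, low in NaCl lung, had 5.83 to 10.7 CPM there and 8.03 to 19.3 CPM with MSC, a difference of 0.64 ± 0.21 (limma adjusted p = 0.185). MARS2 had 3.09 to 8.94 CPM with NaCl and 1.44 to 4.58 CPM with MSC, a difference of -0.82 ± 0.29 (limma adjusted p = 0.198). The groups overlapped for all 3 genes. Without MSC replicate 7, 17 members in place of 11 were at an unadjusted p under 0.05, beside 23.0% of all genes. EIF4A1 differed by -0.65 ± 0.24 with an unadjusted p of 0.0152 in limma.

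Ceftaroline alone was compared with the same NaCl libraries. limma again called 0 members and 0.0% of 9614 genes tested. At an unadjusted p under 0.05 stood 15 members, 3 higher and 12 lower, beside 18.3% of all genes tested. edgeR called 0, with 14 at an unadjusted p under 0.05 (0.0% and 19.6% of all genes). DESeq2 called 5 lower, with 17 at an unadjusted p under 0.05. Of all genes, DESeq2 called 2.69% higher and 2.70% lower, and 22.5% were at an unadjusted p under 0.05. No ceftaroline library has a title ending; against the 4 NaCl libraries without one, 0 were called and 8 were at an unadjusted p under 0.05 (17.0% of all genes). EIF3D had 548 to 664 CPM with NaCl and 363 to 527 CPM with ceftaroline, with every ceftaroline library below every NaCl library, and differed by -0.45 ± 0.12 (limma adjusted p = 0.136). EIF6 had 272 to 333 CPM and 178 to 288 CPM, a difference of -0.41 ± 0.12 (limma adjusted p = 0.137). EIF4ENIF1 had 25.1 to 33.5 CPM and 17.9 to 25.7 CPM, a difference of -0.43 ± 0.13 (limma adjusted p = 0.141).

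The authors' deposited table called these 3 genes lower with ceftaroline, and EEF1B2 and EIF2B3 beside them, with log2 differences of -0.43 for EIF3D, -0.40 for EIF6, -0.44 for EIF4ENIF1, -0.66 for EEF1B2 and -0.39 for EIF2B3. That table called 501 of its 23669 genes in either direction, and 10217 of the 23669 had no read in any library. All 5 members were among those called higher in NaCl than in healthy lung. The comparison of NaCl with healthy lung and the one with ceftaroline share the NaCl libraries with opposite sign, so opposite directions are favoured by construction. EEF1B2 had 626 to 1429.5 CPM with NaCl against 483 to 811 CPM with ceftaroline. The MSC and ceftaroline comparisons share the NaCl libraries, so their values for a gene are not independent of each other. Without NaCl replicate 5, 9 members in place of 15 were at an unadjusted p under 0.05 for ceftaroline, beside 15.3% of all genes. The neutrophil sums with ceftaroline were 4554 to 138915 CPM. All 6 tested neutrophil genes were lower than with NaCl, with a median of -1.64, and 3 of them were at an unadjusted p under 0.05 in limma; their part was not tested.

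MSC added to ceftaroline were compared with ceftaroline alone. limma called 0 of the 63 members, beside 0.0403% of 9924 genes tested. At an unadjusted p under 0.05 stood 4 members, all lower, beside 11.5% of all genes tested. edgeR called 0, with 5 at an unadjusted p under 0.05 (0.111% and 12.2% of all genes). DESeq2 called 0, with 9 at an unadjusted p under 0.05 (0.998% and 15.1% of all genes). No library of these groups has a title ending. NARS had 34.8 to 70.1 CPM with ceftaroline and 19.9 to 51.1 CPM with both, a difference of -0.66 ± 0.20 (limma adjusted p = 0.385). EIF4B had 158 to 247 CPM and 125 to 195 CPM, a difference of -0.33 ± 0.13 (limma adjusted p = 0.426), and EIF4A1 differed by -0.57 ± 0.26 (limma adjusted p = 0.432). The groups overlapped for these 3 genes. The count at an unadjusted p under 0.05 moved with single libraries, for the members and for all genes. Without ceftaroline replicate 7, whose neutrophil sum was 4554 CPM, it was 16 members and 21.7% of all genes, without ceftaroline replicate 3 it was 7 and 15.0%, and without ceftaroline plus MSC replicate 1 it was 9 and 13.5%. It was 2 without ceftaroline replicate 2, 4 or 6 (7.58% to 8.90% of all genes), 1 without ceftaroline replicate 1 (7.25%) and 1 without ceftaroline plus MSC replicate 3, 5 or 6 (6.60% to 7.58%). The neutrophil sums of the group given both were 1434 to 47079.5 CPM. All 5 tested neutrophil genes were lower than with ceftaroline alone, with a median of -1.99, and 1 of them was at an unadjusted p under 0.05 in limma; their part was not tested.

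The difference between the MSC effects with and without ceftaroline was tested in the joint fit. limma called 0 members, beside 0.00967% of 10345 genes tested, and 1 member was at an unadjusted p under 0.05, beside 5.78% of all genes tested. edgeR called 0, with 0 at an unadjusted p under 0.05, beside 0.0193% and 6.6% of all genes. DESeq2 was not run on this difference. The member at an unadjusted p under 0.05 in limma was EIF4ENIF1. In the separate fits of each comparison its MSC effect was -0.50 ± 0.14 on top of NaCl and -0.15 ± 0.11 on top of ceftaroline. In the joint fit the difference of its MSC effects was 0.34 ± 0.16 (limma adjusted p = 0.837). EIF4G3 and EIF2B3, next in order of p, had differences of -0.36 ± 0.19 and 0.35 ± 0.19 (limma adjusted p = 0.871 and 0.872). EIF4A1 had a lower mean with MSC in both settings, at -0.65 and -0.57 in the separate fits. The difference of its MSC effects in the joint fit was 0.09 ± 0.33, with a limma adjusted p of 0.991.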

How the data were processed

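Lung RNA of rabbits was sequenced in 35 libraries with stranded single reads of 75 bp, and trimmed reads over 10 bp were kept, per the labels' protocols. TopHat2 2.1.1, featureCounts 1.5.2 and DESeq2 1.24.0 are named in the submitters' processing notes; neither the genome build and annotation nor the use of strand in counting is stated there or in the labels. The authors deposited 4 tables of 23669 genes and 14 libraries each, with a signal column per library: reads per gene divided by a size factor. From the same tables come the authors' log2 fold changes, the authors' p-value columns and a score, the authors' Wald statistic; of these only fold changes and adjusted p-values were read here.

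All values (100.0%, tolerance 1e-06) were whole multiples of a library's step, so whole reads were recovered, and the 14 libraries held by more than 1 table gave the same reads. Symbols were written as dates for 11 genes in 3 tables and were taken by identifier from the other.

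Each comparison between 2 groups of a table was fitted with limma 3.58.1 (R 4.3.3) on log2(normalised reads + 1) over genes with at least 10 in 7 of 14 libraries. The comparisons with healthy lung in treated groups, and the difference of MSC effects, came from 1 limma fit of 35 libraries on log2(CPM + 1), TMM-scaled. Benjamini-Hochberg adjustment ran over all genes tested, with a threshold of 0.05. Alternatives were edgeR 4.0.16 and DESeq2 1.42.0 on the recovered reads, other thresholds, pseudocounts of 0.5 and 8, no filter, TMM scaling, each library left out, and the title endings. The members and lists were chosen with earlier results of these data known. Named were up to 3 members of lowest p per role and a fixed panel for NaCl against healthy, and the 3 of lowest p in each other comparison; further members are given with values picked after they were seen, among them those called lower with NaCl. The fits were tried on simulated data in which far fewer genes were changed than were called in NaCl against healthy lung. A change as broad as in that comparison was not simulated. The values of 1 member are counted in the totals and not reported here.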

Additional observations from a re-analysis of the deposited data

Results flagged for a closer look

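For 38 members named in the comparisons, the CPM of the 7 libraries of each of the 5 groups were searched for a library far from the others, and 12 of 190 such sets held one; chance alone marks about 1 in 20. Healthy replicate 6, 1 of the 2 healthy libraries whose titles carry another group's letter, stood apart in 5 genes: it was the highest healthy library for EIF2S1 at 73.5 CPM (the others at 44.5 to 56.7), EIF2S2 at 337 CPM (193 to 242), EPRS at 169 CPM (110.1 to 132) and RARS2 at 29.8 CPM (17.4 to 22.1), and the lowest for EIF4A1 at 124 CPM (154 to 176). Healthy replicate 7 was the highest for EIF4G1 at 641 CPM (504 to 547). Among NaCl libraries, replicate 5 was the highest for EEF1AKNMT at 103 CPM (55.7 to 75.2), and replicate 3 for EIF2B4 at 129.7 CPM (104 to 115).

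Among the MSC libraries, replicate 7 was the highest for EIF3J at 106 CPM (38.5 to 63.1), replicate 1 the lowest for EIF4A2 at 50.4 CPM (102 to 131), and replicate 6 the lowest for VARS at 74.0 CPM (145 to 191). With ceftaroline plus MSC, replicate 5 was the highest for EIF4ENIF1 at 22.7 CPM (18.5 to 19.9). Leaving out healthy replicate 6 or 7, NaCl replicate 3 or 5, each in turn, kept the calls of EIF2S1, EIF2S2, EPRS, RARS2, EIF4A1, EIF4G1, EEF1AKNMT and EIF2B4 in NaCl against healthy lung by limma.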

How the results depend on the processing

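In NaCl against healthy lung, the counts of members called higher (37) and lower (5) mostly stayed within 1.5 times of these under the alternatives tried. The exceptions were 3 lower at an adjusted p under 0.01 (24.4% of all genes) and 2 lower among libraries without a title ending (18.1% of all genes). Leaving out each library in turn gave 36 to 38 higher and 4 to 6 lower, beside 27.9% to 29.7% and 29.1% to 31.1% of all genes. Of the values of named members under these alternatives, 817 kept direction and side of the threshold, 30 lost the call and 11 changed sign, all 11 in members that were not called: EIF2AK4 (0.0012 without a title ending), EIF4A2 (0.086 with one), EEF1A1 (-0.12 to 0.0012 with a library left out) and EIF2AK3 (0.15 with a title ending, 0.053 with the ending as a covariate, 0.016 without healthy replicates 6 and 7, -0.092 to 0.077 with a library left out). The cause was not tested.

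DESeq2 called 1 member lower for MSC against NaCl and 5 for ceftaroline against NaCl, where limma and edgeR called 0; over all genes DESeq2 called 3.55% and 5.4%, and limma and edgeR none. With ceftaroline plus MSC against healthy lung, 2 were lower at an adjusted p under 0.01 (8.11% of all genes). With a library left out, 3 to 7 were lower (11.8% to 19.3% of all genes). Restricting the groups to libraries without a title ending, an alternative chosen after seeing the data for the comparisons with healthy lung and for ceftaroline against NaCl, left 2 healthy libraries; it gave 18 higher with ceftaroline plus MSC (6.03% of all genes) and 3 lower with ceftaroline (14.8% of all genes). Leaving out healthy replicates 6 and 7, for their titles, was also chosen after seeing the data and kept every count of calls within 1.5 times. With 7 libraries a group, a library was left out at a time and the members at an unadjusted p under 0.05 counted. The members ranged from 9 to 17 for MSC and from 9 to 19 for ceftaroline. They ranged from 1 to 16 for MSC on top of ceftaroline and from 0 to 5 for the difference. All genes tested moved too, with 1200 to 2172 of 9446 for MSC and 1254 to 2245 of 9614 for ceftaroline. For MSC on top of ceftaroline 655 to 2153 of 9924 genes stood there, and for the difference 478 to 893 of 10345.

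Title numbers are shared by libraries of different groups, but the labels do not tie them to a litter or day, and same-numbered libraries did not deviate together throughout (correlations of their deviations from -0.38 to 0.48). With the title number as a replicate block, limma called 0 members in MSC against NaCl (3 pairs), ceftaroline against NaCl (4 pairs) and ceftaroline plus MSC against ceftaroline (7 pairs), with 1, 3 and 8 at an unadjusted p under 0.05, beside 8.99%, 5.82% and 13.1% of all genes.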
